A study of Drosophila melanogaster with 4 samples.

Results

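The right arm of the third chromosome, 3R, carried 1316 enriched H3K27ac regions in replicate 1 and 1268 in replicate 2, out of 5501 and 5426 in the genome. The list deposited for the replicate set held 1448 regions on 3R out of 6270. Members were all regions named as enriched on the sequence 3R of FlyBase release 5, which is 27.9 Mb long and from which the sequence set 3RHet is kept apart. Of the 3 regions named as depleted in the list of the replicate set, 0 lay on 3R. The chromatin came from homogenised tissue of 3rd instar larvae of the wild-type Drosophila strain Oregon-R (Oregon-R-modENCODE), with no treatment named in the labels. ChIP DNA was obtained with a crude rabbit polyclonal antibody raised against a peptide with acetylated lysine 27 of histone H3. The samples were 2 ChIP replicates and 2 inputs. Input was not analysed here. No label states that the ChIP replicates stem from different larval collections, and their SD can be technical. Larvae hold many tissues, so a region marked in a few cells and one marked weakly in many cannot be told apart.

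H3K27ac is laid down by the acetyltransferase CBP (Nejire in Drosophila) and marks active promoters and enhancers. The same lysine is trimethylated by Polycomb repressive complex 2 at developmental genes that are kept silent. The arm 3R holds both homeotic gene complexes, with Antp and Scr in the Antennapedia complex and Ubx, abd-A and Abd-B in the bithorax complex, as well as the heat-shock genes Hsp70Aa and Hsp70Ba. The arm of these genes was read from a gene table on release 6, whose coordinates were not used. Regions are named by their release 5 position.

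Regions covered 22.2% of the arm in replicate 1 and 20.7% in replicate 2, a mean of 21.4% ± 1.04 (SD, n = 2). The other 4 large arms (2L, 2R, 3L and X) together were covered to 21.5% ± 0.860. The arm thus differed from the rest by less than the SD between replicates. It held 46.3 ± 1.22 regions per Mb, beside 44.4 ± 0.155 on the other large arms. The arm is 23.4% of the length of the 5 large arms and held 24.5% and 23.9% of their regions in replicates 1 and 2. The median widths were 3208 bp and 3060 bp in replicates 1 and 2, beside 3187 bp and 3160 bp on the other arms. Median scores, which are the authors' own values and are read here as log2, were 0.80 and 0.79 in replicates 1 and 2 on 3R. They were 0.76 and 0.77 on 3L, 0.80 and 0.80 on 2L, 0.86 and 0.84 on 2R and 1.01 and 0.97 on X. The arm thus stood between the other autosomal arms, and X was the highest. With 2 replicates no test of these differences was made.

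Along the arm, covered share changed unevenly and with no steady slope. The arm sequence was divided into 5 segments of 20% each, numbered in the order of its bases. Their covered shares in that order were 24.5% ± 0.742, 22.0% ± 0.940, 18.2% ± 1.18, 22.6% ± 1.04 and 19.8% ± 1.29 (SD, n = 2). Segment 1 was the most covered and segment 3 the least, in both replicates. The last segment minus the first was -4.38 percentage points in replicate 1 (20.7% in the last and 25.1% in the first) and -5.15 in replicate 2 (18.9% in the last and 24.0% in the first), a mean of -4.76 ± 0.549. The size of this difference depended on the segments chosen, with -2.53 points between the last and first 10% of the arm and -3.05 between the last and first 33.3%. In the higher-scoring 50% of each list, cut at its median score over the genome, it was -2.41 points between the last and first 20%. Across 56 windows of 500 kb, Spearman's rho between position and covered share was -0.13 in replicate 1 and -0.14 in replicate 2. Neighbouring windows share their surroundings, with a Pearson r of 0.27 between adjacent windows, so these values are a description. By the usual orientation of the arm, its first bases lie toward the centromere and its last bases toward the telomere.

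Region number followed the same course, score did not, and width did so only in part. In order, the segments held 52.7 ± 0.253, 47.7 ± 1.27, 37.7 ± 2.41, 50.6 ± 1.65 and 42.8 ± 0.507 regions per Mb. Median score stayed between 0.77 ± 0.01 in segment 4 and 0.85 in segment 5, which scored 0.85 in each replicate. Median width stayed between 2961 ± 130 bp in segment 3 and 3270 ± 182 bp in segment 1, the same extremes as covered share. In segment 5 it was 3254.5 ± 95.5 bp, near that of segment 1. Segment 5 thus held fewer regions than segment 1, with a median score at least as high in each replicate. Across the 500-kb windows, covered share had a Spearman rho of 0.91 with the number of regions in replicate 1 and 0.88 in replicate 2. Its rho with median width was 0.24 and 0.19, and with median score 0.20 and 0.22. Number and covered share of a window are built from the same regions. Both-replicate regions are the stretches of bases that both replicates list. The 96 of them that were at least 10 kb wide lay in all segments, with 21, 21, 18, 19 and 17 in the 5 segments.

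**Figure D1:**
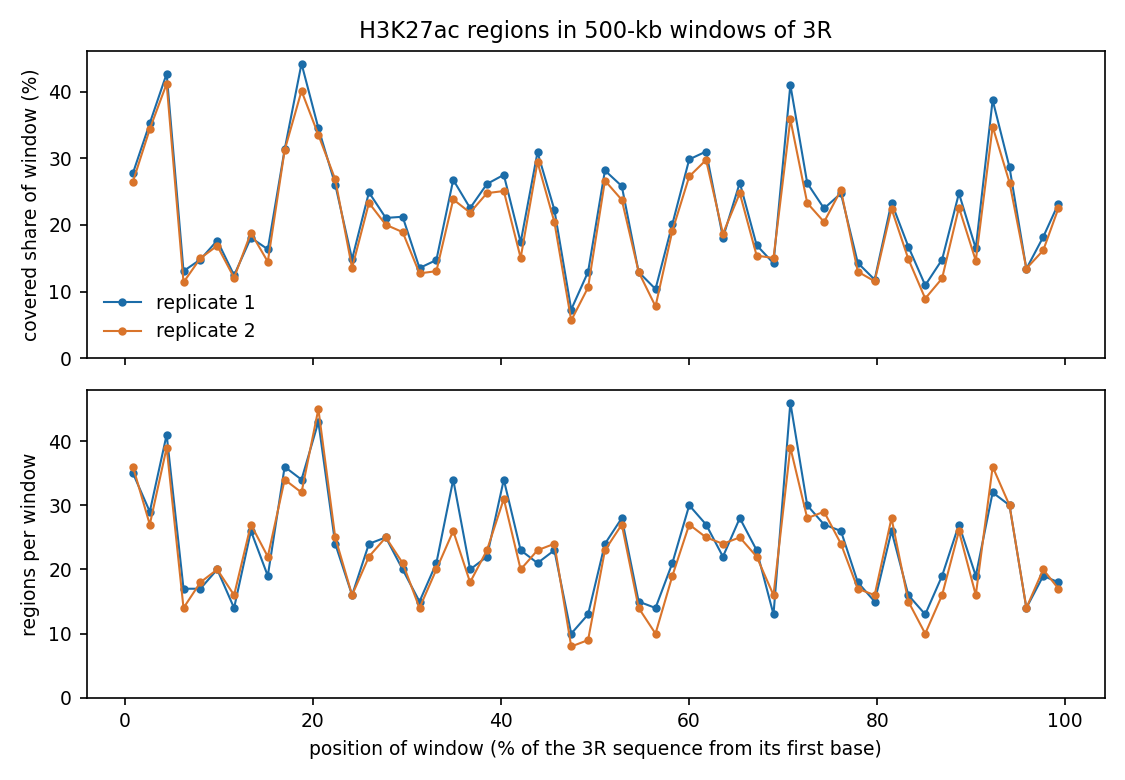
Covered share (upper panel, percent of the window) and number of regions (lower panel) in 56 windows of 500 kb along 3R, against the position of the window as a percentage of the arm sequence. Points are single replicates. The large peaks and troughs of covered share fall at the same windows in both, smaller ones can differ, and no steady slope joins the ends.

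**Figure D2:**
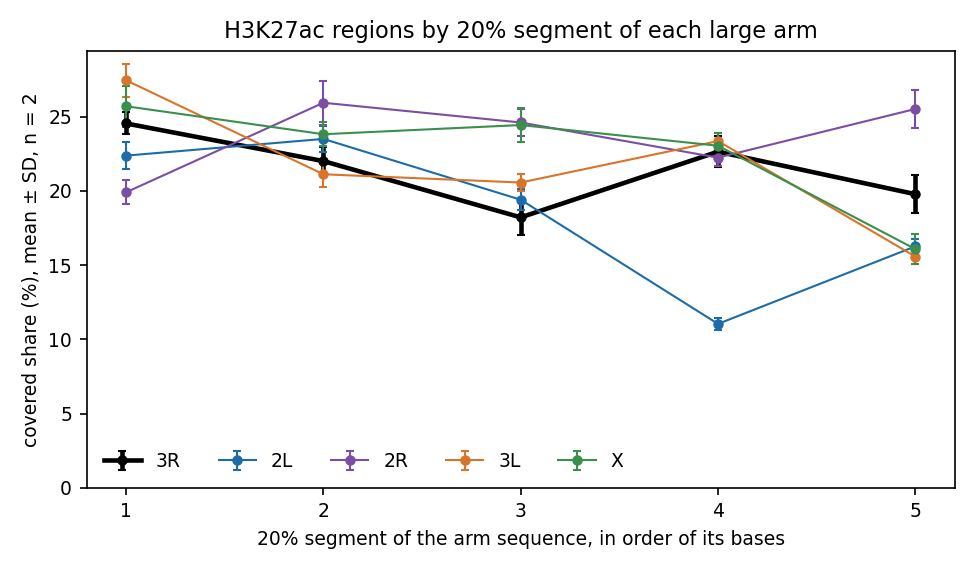
Covered share (percent, mean of 2 replicates with SD) in each 20% segment of 3R and of the other 4 large arms, in the order of the bases of each sequence. On 3R the values lie between 18.2% and 24.5%, with the lowest in segment 3.

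Beside the other arms, the segments of 3R spanned a range of 6.33 percentage points. On 2R the range was 6.03 points, on X 9.62, on 3L 11.9 and on 2L 12.5. On 3L and X the lowest segment was the last, at 15.6% ± 0.532 and 16.1% ± 1.03, and on 2R it was the first, at 19.9% ± 0.804, so on these the lowest segment stood at the end nearer the centromere. On 3R the segment at that end, segment 1, was the highest of the 5, and on 2L the lowest was segment 4. These values are set side by side without a test, since each arm is a single sequence. The plot of covered share by segment shows the 5 arms together.

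The first listed base of 3R was already inside a region in both replicates. Starting there, it ended at base 14513 in replicate 1 (score 1.50) and at base 14472 in replicate 2 (score 1.51). Its true start may lie beyond the end of the arm sequence. At the other end, the last region stopped 10202 bp before the last base in replicate 1 and 10290 bp before it in replicate 2.

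The 4 most covered windows lay apart from each other. Regions are counted in the window that holds their midpoint. The window from 5000001 to 5500000 was covered to 44.2% in replicate 1 and 40.1% in replicate 2, and that from 1000001 to 1500000 to 42.7% and 41.2%. The window from 19500001 to 20000000 was covered to 41.0% and 35.8%, and that from 25500001 to 26000000 to 38.7% and 34.7%. They reached this cover in different ways. The window from 19500001 held many regions of low score, 46 in replicate 1 and 39 in replicate 2, with median scores of 0.70 and 0.72 and median widths of 2870 bp and 2655 bp. The window from 1000001 held 41 and 39 regions, with median scores of 1.13 and 0.99 and median widths of 3663 bp and 4290 bp. The window from 25500001 held fewer, 32 and 36, with median scores of 1.06 and 1.02.

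At 100 kb, 16 of 279 windows were covered over 50% as a mean of both replicates. The densest, from 17400001 to 17500000, was covered to 75.7% in replicate 1 and 75.5% in replicate 2, by 9 regions in each. In 3 runs of 400 kb, 4 neighbouring windows were each covered over 30% in both replicates. They lay from 800001 to 1200000 (55.1% and 54.7% in replicates 1 and 2), from 5200001 to 5600000 (51.2% and 46.2%) and from 19700001 to 20100000 (43.2% and 36.8%). The run from 19700001 differed most between replicates.

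The least covered window, from 13000001 to 13500000, was covered to 7.30% in replicate 1 and 5.67% in replicate 2, by 10 and 8 regions. The next were from 15500001 to 16000000 (10.4% and 7.77%), from 23500001 to 24000000 (10.9% and 8.95%) and from 22000001 to 22500000 (11.8% and 11.5%). A low cover did not always go with low scores. In the window from 23500001 the median scores, 0.93 and 0.97 in replicates 1 and 2, were above those of the whole arm. In the window from 15500001 they were 0.53 and 0.68, below those of the arm. The ninth widest both-replicate region began 21.4 kb beyond the end of the least covered window.

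Of the arm, 76.7% lay in no region of either replicate. This was divided into 1333 stretches with a median length of 4811 bp, of which 112 were at least 50 kb and 45 at least 100 kb long. The 112 stretches held 11.2 Mb, or 40.2% of the arm, beside 32.1% on 2R, 40.3% on 3L, 46.3% on 2L and 46.8% on X. The longest on 3R was 273 kb, from 23815908 to 24089350. The longest was 257 kb on 2R, 350 kb on 3L, 364 kb on X and 448 kb on 2L. On 3R the next were 265 kb from 6716574 to 6982005, 257 kb from 23120729 to 23378225, 215 kb from 15862161 to 16077565 and 215 kb from 18608680 to 18823193. The list of the replicate set covered at most 0.606% of any of these 5 stretches. In order, the 5 segments of 20% held 24, 22, 30, 17 and 19 of the 112 stretches, with the most in segment 3.

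Of the 10 longest empty stretches, 3 lay within a span of 1241 kb, from 23120729 to 24361931. They were parted by 438 kb covered to 21.6% in replicate 1 and 18.0% in replicate 2, near the cover of the whole arm, and by 78.4 kb covered to 29.7% and 28.5%. Regions covered 9.50% of the whole span in replicate 1 and 8.14% in replicate 2. The 23 regions of replicate 1 and 19 of replicate 2 in it had median scores of 0.94 and 1.06, and the highest scored 1.97 and 1.67. The longest span with no region from the higher-scoring 50% of either replicate was 636 kb, from 2254751 to 2890988. It held 9 regions of replicate 1 and 10 of replicate 2, which covered 4.64% and 4.83% of it and which this choice limits to low scores. A dense block followed shortly after it. The window from 2900001 to 3000000 was covered to 67.9% in replicate 1 and 65.6% in replicate 2 and held parts of 2 of the 10 highest-scoring both-replicate regions.

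Between dense and empty stretches, regions often lay close together. Merging the regions of both replicates gave 1333 merged regions. Joined across gaps of at most 2000 bp, these formed 937 groups, of which 671 were single regions. The longest group, from 12026026 to 12086292, was 60.3 kb long and held the widest region of the arm. The second, from 898267 to 954947, was 56.7 kb long and consisted of 4 merged regions, covered to 91.7% in replicate 1 and 88.1% in replicate 2. The third, from 1081084 to 1135470, was 54.4 kb long and held 7 merged regions, covered to 81.4% and 77.7%. In the other direction, 74 merged regions had no neighbour within 20 kb on either side, and 59 of these held bases that both replicates listed. The same share over all 1333 merged regions was not computed, so this count is not read as a trait of isolated regions. The median isolated region was 2563 bp wide and the median of all other merged regions 3346 bp. In order, the 5 segments held 10, 17, 18, 16 and 13 of them.

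The widest domains held a large part of the marked bases. The widest 5% of regions held 21.1% of the listed bases of 3R in replicate 1 and 20.8% in replicate 2, with lower bounds of 12.8 kb and 12.1 kb. Regions over 10 kb numbered 119 in replicate 1 and 109 in replicate 2, which is 8.82% ± 0.316 of the regions, beside 9.75% ± 1.26 on the other large arms. Their median score was 1.50 and 1.51. Regions under 2 kb numbered 278 and 245, with median scores of 0.45 and 0.42. Across the regions of the arm, width and score had a Spearman rho of 0.84 in each replicate. Both belong to the same regions, and the threshold behind the lists is unknown, so this is a description.

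The widest both-replicate region of 3R ran from 12030014 to 12086198. Both lists gave it nearly the same extent, 56.3 kb (score 2.18) in replicate 1 and 56.4 kb (2.17) in replicate 2. It was also the eighth highest of the arm by mean score. The second, from 17446561 to 17487455, measured 41.0 kb and 41.1 kb and scored 1.64 and 1.59. The third, from 6410133 to 6441480, measured 31.7 kb and 31.6 kb and scored lower, 1.41 and 1.36. The SD of width between replicates was under 0.1 kb for each of these 3 (0.087, 0.031 and 0.082 kb).

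The other 7 of the 10 were between 27.5 kb and 23.7 kb wide as both-replicate regions. The one from 5242809 to 5270350 scored 1.79 in replicate 1 and 1.68 in replicate 2. That from 898337 to 923941 scored 1.29 and 1.25 and belonged to a region that the replicate set listed as 42.2 kb. The region from 21453395 to 21478842 scored 1.38 and 1.29. The one from 4626379 to 4651262 scored 2.19 and 1.90, the largest difference among the 10. That from 10101068 to 10125844 scored 1.28 in each replicate, and was the only one of the 10 with a higher score in replicate 2. The regions from 13521399 to 13545217 (2.07 and 2.02) and from 10554125 to 10577855 (1.97 and 1.83) completed the list. All 10 had mean scores above the upper quartile of the both-replicate regions of the arm, 1.21. Of the 10, 8 lay in the first 50% of the arm, whereas the 96 regions of at least 10 kb were divided 48 and 48 between the first and the last 50%. Together the 10 held 5.58% of the bases of the both-replicate regions on 3R.

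The highest scores belonged mostly to wide regions. Among both-replicate regions of at least 500 bp, the 10 highest by mean score were 4.20 kb to 56.2 kb wide with a median of 10.00 kb, against a median of 2985 bp over all 1250. Of the 10, 9 were among the widest 20% of the both-replicate regions, 6 among the widest 10%, and 1 among the 10 widest. The 10 widest are a small part of the 1250, across which width and mean score had a Spearman rho of 0.80. The highest, from 7580643 to 7591020, scored 2.95 in replicate 1 and 2.55 in replicate 2 and was 10.4 kb and 10.9 kb wide. The second, from 27420370 to 27438297, lay at 98.3% of the arm sequence, with further regions beyond it, and scored 2.83 and 2.56. Its width was 22.2 kb in the list of replicate 1 and 17.9 kb in that of replicate 2, which had a further region within the span of replicate 1. The third, from 11066771 to 11074383, scored 2.54 and 2.24.

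The next 2 stood side by side, from 2899503 to 2905698, with 2.46 and 2.29 in replicates 1 and 2, and from 2910488 to 2917881, with 2.50 and 2.04. The region from 2910488 had the largest difference between replicates among the 10, 0.46. The sixth, from 17120674 to 17124874, scored 2.34 and 2.09 and was the narrowest of the 10. It stood apart from its neighbours, with 17.6 kb free of regions before it and 37.3 kb after it. The others were from 8835298 to 8846798 (2.24 and 2.15), the widest region named first, and those from 27042478 to 27053612 (2.23 and 2.09) and from 6175193 to 6184806 (2.13 and 2.19). The region from 27042478 also stood apart, with 18.5 kb free before it and 23.1 kb after it, as did that from 6175193, with 16.8 kb and 19.9 kb. Replicate 1 scored higher in 9 of the 10. In the plot of width against score, the highest points stand left of the widest ones, except the region that is among both.

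**Figure D3:**
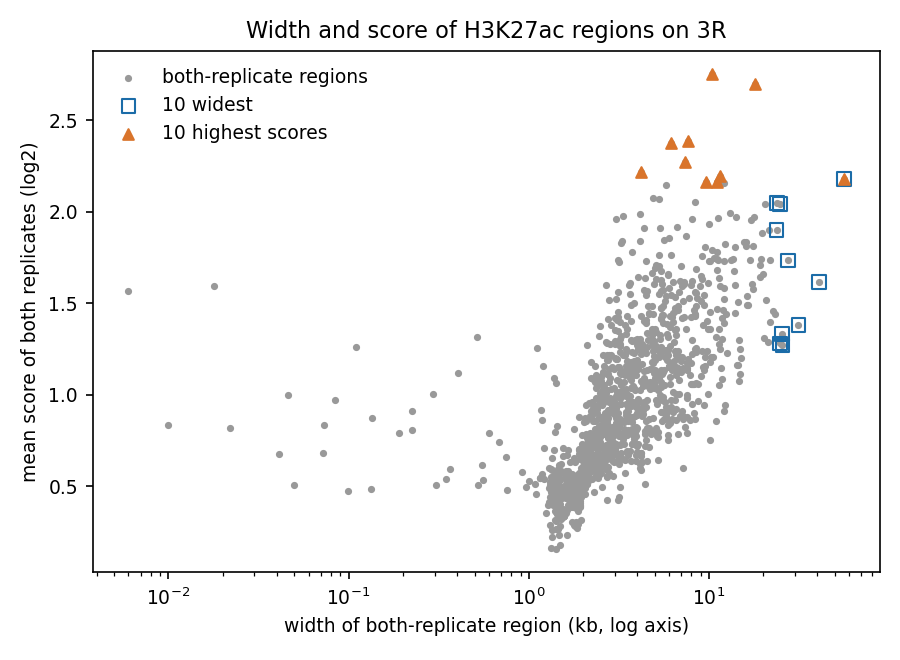
Width of the 1250 both-replicate regions of 3R (kb, log axis) against the mean of both replicates' scores (log2). Squares mark the 10 widest and triangles the 10 highest scores among regions of at least 500 bp; 1 region has both marks, and the points under 1 kb are short overlaps of regions whose listed widths are larger.

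Most regions of 3R were listed by both replicates. Of those in replicate 1, 1155 of 1316 (87.8%, 95% Clopper-Pearson interval 85.9 to 89.5, counting error only) shared at least 1 bp with a region of replicate 2. Of those in replicate 2, 1198 of 1268 (94.5%, 93.1 to 95.7) shared at least 1 bp with replicate 1. On the other large arms the shares were 88.9% to 89.1% for replicate 1 and 93.1% to 94.2% for replicate 2. Of all bases listed on 3R by either replicate, 83.8% were listed by both. By segment of 20%, in order, the share of replicate 1 regions was 91.9%, 84.9%, 85.9%, 88.6% and 86.7%, and that of replicate 2 regions 95.9%, 93.1%, 95.5%, 93.1% and 94.9%. The intervals of the segments overlapped within each replicate, which does not show that the shares were equal. In replicate 1 those of segments 1 (88.1 to 94.7) and 2 (80.0 to 88.9) overlapped only narrowly, and no test was made. Covered shares of the 500-kb windows had a Pearson r of 0.99 between replicates, and replicate 1 was the more covered in 48 of 56 windows.

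Regions of high score were nearly all shared. In the lowest 10% of scores on the arm, 72 of 132 regions of replicate 1 (54.5%, 45.7 to 63.2) and 112 of 127 of replicate 2 (88.2%, 81.3 to 93.2) were shared. The class above it had 81 of 132 (61.4%) shared in replicate 1 and 101 of 127 (79.5%) in replicate 2. In the upper 5 of 10 such classes, 654 of 656 regions of replicate 1 and 633 of 633 of replicate 2 were shared. These counts allow a partner of any score. Both lists were also cut at their genome-wide median score, which kept 624 of the 3R regions in replicate 1 and 592 in replicate 2. In these higher-scoring 50%, 87.2% of replicate 1 and 94.3% of replicate 2 regions were shared, since partners below the cut no longer counted. All 119 and 109 regions over 10 kb were shared. Under 2 kb it was 139 of 278 regions in replicate 1 (50.0%) and 187 of 245 in replicate 2 (76.3%). A wide region reaches an overlap of 1 bp more easily by its width alone, and no baseline by width was computed. Replicate 1 alone listed 161 regions, with medians of 1575 bp for width and 0.47 for score, and replicate 2 alone listed 70, with 1579 bp and 0.49. They held 4.37% and 2.06% of the listed bases.

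**Figure D4:**
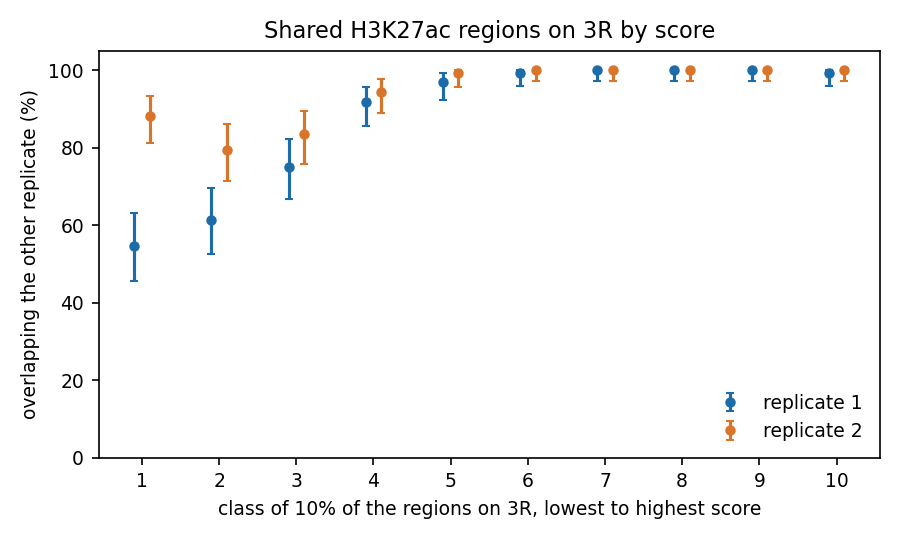
Share of the regions of each replicate on 3R that overlap the other replicate by at least 1 bp (percent, with 95% Clopper-Pearson intervals), in 10 classes of rising score. From class 6 up at least 99.2% overlap a region of any score in the other replicate.

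Few unshared regions scored high. The highest, from 8295731 to 8297041 in replicate 1, was 1311 bp wide, scored 1.81 and lay 703 bp from the nearest region of replicate 2. The next of replicate 1 scored 0.82 (9727445 to 9729711) and 0.74 (19939749 to 19943972). The highest of replicate 2 scored 0.74 (24823105 to 24825473), 0.65 (9158086 to 9160456) and 0.64 (6473162 to 6475610). All 6 overlapped a region of the replicate set, as did all but 4 of the 1316 regions of replicate 1 and all 1268 of replicate 2.

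Where both replicates listed a region, scores were close and replicate 1 was a little higher. Each region of replicate 1 was paired with its largest overlap in replicate 2, and in 1120 of 1155 pairs this was so in both directions. Over these 1120, Spearman's rho was 0.93 for scores and 0.90 for widths, and Pearson's r for scores was 0.95. The score of replicate 1 minus that of replicate 2 averaged 0.07 ± 0.14 (SD over pairs) and was above 0 in 778 pairs. In the highest 10% by mean score it averaged 0.13 ± 0.13, with replicate 1 higher in 99 of 112 pairs. In the lowest 10% it averaged 0.05 ± 0.10, with replicate 1 higher in 78 of 112. These correlations are across regions of the same 2 replicates, with no p. In the other 35 pairs, replicate 1 divided a region of replicate 2, and the piece with the smaller overlap scored lower than the whole in 35 of 35.

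**Figure D5:**
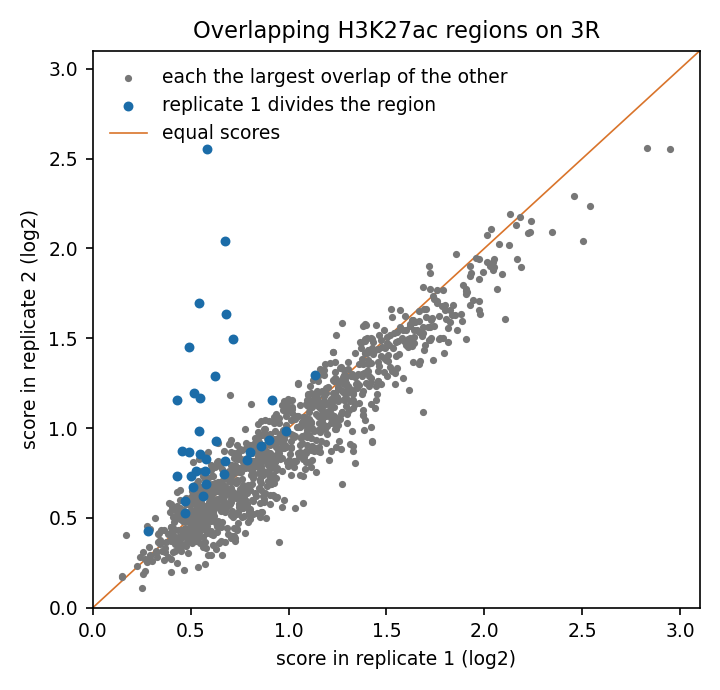
Score in replicate 1 against score in replicate 2 (both log2) for 1155 pairs of overlapping regions on 3R. Grey points are the 1120 pairs in which each region is the largest overlap of the other. In the 35 blue points, labelled as divided, the replicate 2 region shared more bases with another replicate 1 region. Some of these pairs overlap only at an edge, so the label does not hold for each. All 35 lie above the line of equal scores.

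The edges of these regions were compared in the 1120 pairs. There, starts differed by a median of 132 bp and ends by a median of 121 bp, and 680 starts (60.7%) lay within 200 bp of each other. Widths were within 1.4-fold in 938 pairs (83.8%), and replicate 1 gave the wider region in 758. Among the 50 widest of these pairs, replicate 2 listed 2 or 3 regions that overlapped 1 region of replicate 1 at each of the 6 whose widths differed by the largest ratio. From 26079245 to 26116817, replicate 1 listed 1 region of 37.6 kb where replicate 2 listed 3, the largest of 21.8 kb. The replicate set listed 39.6 kb there. From 25596048 to 25630157, replicate 1 listed 34.1 kb and replicate 2 had 2 regions, the larger of 21.8 kb, and the set listed 34.4 kb. The scores of the largest pieces stayed close, at 1.74 and 1.73 in replicates 1 and 2 at the site from 26079245 and 1.93 and 1.86 at that from 25596048. In all, 90 regions of replicate 1 overlapped more than 1 region of replicate 2, and 51 of replicate 2 more than 1 of replicate 1.

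The list of the replicate set added weak regions to those of the replicates. It covered 25.2% of 3R. Of its 1448 regions, 1060 (73.2%) overlapped both replicates and held 90.7% of its bases, with medians of 4339 bp and 0.81. Replicate 1 alone was overlapped by 148 and replicate 2 alone by 65. The other 175 (12.1%), with medians of 1275 bp and 0.33, overlapped no replicate region and held 3.40% of the bases. Of these, 92 were narrower than any region of either replicate on 3R (1301 bp and 1303 bp in replicates 1 and 2). The set in turn left out 4 regions of replicate 1 and 0 of replicate 2.

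The highest score of the set on 3R was not seen in either replicate. It was 3.26, from 4399802 to 4400802, in a region of 1001 bp, the smallest width listed in the set on 3R, with the nearest region of a replicate 10121 bp away. The highest score of the set on 3L had the identical value, and 2L and 2R shared a highest score of 3.07. Such a value is thus not particular to this site, and why it recurs was not tested. The next 4 scores of the set on 3R (2.59, 2.57, 2.33 and 2.27) were at the sites that rank 2, 1, 3 and 4 by the mean score of both replicates. One region of the set, which starts at 16996216, has an end given as a power of 10, which was taken to be 17000000. The replicates ended that region at 16999908 and 16999772.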

How the data were processed

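The 3 deposited lists give regions on FlyBase release 5, per the file headers. Each region carries a score by the authors on a log2 scale. That base was read from the deposited values: 35.6% (replicate 1), 50.9% (replicate 2) and 32.7% (replicate set) of the 3R scores differ from the commonest score of their list by the log2 of a ratio of whole numbers (denominator up to 400, numerator up to 1600, to within 1e-09 of the ratio), and at most 0.868% by that of another base. The zero of the scale is unknown. Bowtie 0.12.7 stands in the submitters' processing notes, with no step given. What called the regions, at which threshold, with what use of input, and how replicates were joined is not given in the sources used here. The lists hold no read counts, so depth is unknown.

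Regions were read with Python 3.11.15, numpy 2.4.6 and scipy 1.17.1. Windows at the end of the arm were kept if at least 50% filled. Intervals are 95% Clopper-Pearson. With 2 replicates, values are means with SD and no test was made. The counting was tested on simulated regions. Regions, windows and stretches were named by rank of width, score, length or cover, with the 3 strongest unshared regions per replicate. The spans of neighbouring empty stretches, runs of windows and groups of regions were picked with their values in view. The members and the rules were chosen with earlier results of these data known. As alternatives, 1 replicate was left out, the list of the set or only the higher-scoring 50% was used, overlap of 50% was asked of both regions, and other parts of the arm, widest shares and window sizes were tried.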

Additional observations from a re-analysis of the deposited data

How the results depend on the processing

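No paired analysis was possible because the replicate numbers pair ChIP with input, and only ChIP lists were analysed. With 1 replicate left out, covered share was 20.7% to 22.2%, median width 3060 to 3208 bp, median score 0.79 to 0.80, the last 20% of the arm minus the first -5.15 to -4.38 points, the widest 5% held 20.8% to 21.1% of bases, and the longest empty stretch was 273 to 275 kb. In the replicate set, covered share was 25.2%, median score 0.61 and the share of the widest 5% 22.1%. In the higher-scoring 50% of each list, covered share was 15.2%, median width 5318 bp, median score 1.20, the last 20% minus the first -2.41 points, the share of the widest 5% 17.7% and the longest empty stretch 636 kb. This selection holds fewer regions by construction. The difference between ends was -2.53 points between the last and first 10% and -3.05 between the last and first 33.3%. The widest 10% held 32.6% and the widest 2% held 11.2% of bases. With reciprocal overlap of 50%, 81.9% of replicate 1 and 85.0% of replicate 2 regions were shared. With both lists cut to their higher-scoring 50%, the shares at 1 bp were 87.2% and 94.3%. The most covered window had 49.5% at 250 kb and 38.1% at 1 Mb, and the least covered 1.91% and 9.13%. No difference turned its sign. Without read counts, weak regions cannot be weighed by depth.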
